A study of Mus musculus with 20 samples.

Results

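The genes of Wnt signalling that act at the cell surface were followed through 5 mouse cell states with and without the de novo DNA methyltransferases Dnmt3a and Dnmt3b. All genes named Wnt, Fzd, Sfrp or Dkk with a number were taken as members by their symbol alone, and 37 of the 18194 measured genes qualified: 19 Wnt ligands, 10 Frizzled receptors (Fzd), 4 secreted Frizzled-related proteins (Sfrp) and 4 Dickkopf antagonists (Dkk). The data were 20 arrays of the Affymetrix MOE430v2 design, a pair for each of 10 groups, and values are log2 levels after RMA, the probe set summary of the authors. All cells descend from the J1 ES cell line of 129sv/Jae mice, and DKO cells lack both Dnmt3a and Dnmt3b (Dnmt3a-/-Dnmt3b-/-) while WT cells carry both. The transgene Gata4GR joins Gata4 to the part of the human glucocorticoid receptor that binds its ligand, is driven by the CAG promoter, and is switched on by dexamethasone (Dex). ES cells were DKO and WT cells with Gata4GR before any Dex. PE cells (primitive endoderm) were DKO and WT ES cells kept 4 days with 100 nM Dex in medium with LIF. Flk1+ cells were DKO and WT cells sorted for Flk1 and PDGFRα after 4 days on type IV collagen without Dex. Dex+ and Dex- cells were such sorted DKO and WT mesoderm cells grown for 4 more days with 100 nM Dex or with none. All cells given Dex carried Gata4GR, so effects of Dex through Gata4GR and by other routes cannot be told apart. Each genotype had 1 transgenic clone, which means that genotype and clone cannot be told apart, and for both Flk1+ groups replicate 1 was the parental line, which lacks Gata4GR. The study describes this collagen culture as not stable over time.

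Wnt proteins are secreted, lipid-modified ligands that bind Frizzled receptors together with co-receptors such as Lrp6. In the canonical branch this binding stops the degradation of β-catenin, which then activates target genes with Tcf and Lef factors, while other branches act on cell polarity and movement. Sfrp proteins bind Wnt ligands outside the cell, and Dkk proteins such as Dkk2 bind the Lrp co-receptors. In the embryo Wnt3 is needed for the primitive streak, from which mesoderm arises, and Wnt5a for the outgrowth of the body axis.

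In the DKO lines the level of Dnmt3a was 6.18 to 6.83 over all 10 arrays, against 7.46 to 9.44 in the WT lines, and that of Dnmt3b was lower in DKO than in WT cells in each of the 5 states. Correlations between the 2 arrays of a group, over all genes, were 0.979 in WT Flk1+ cells and 0.985 in DKO Flk1+ cells, and 0.991 to 0.996 in the other groups. The mean level of 4 ES cell markers was 12.19 to 12.64 in ES arrays, and 6.76 to 7.01 in DKO PE arrays against 9.27 to 9.42 in WT PE arrays. Of the defining PE markers Sox17 was at 13.04 and 13.03 in DKO PE and at 12.91 and 12.80 in WT PE cells. The 3 nascent mesoderm markers averaged 11.71 to 12.08 in Flk1+ arrays. All Dex+ arrays were scanned on the same day, the Dex- and Flk1+ replicates on different days, and each day held as many DKO as WT arrays of a state. As these are bulk samples, fewer cells of a type and less RNA per cell cannot be told apart.

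The levels of all 37 members are drawn in the map of all arrays. A gene was called, or said to have risen or fallen, where the Benjamini-Hochberg adjusted p over 18194 genes was under 0.05 and the change at least 2-fold in limma. By this rule 22 members were called in at least 1 of 19 comparisons: 9 Wnt, 8 Fzd, 2 Sfrp and 3 Dkk genes. The share of all genes called in at least 1 comparison is not given here, so this count is not read against a background. In Dex- relative to Flk1+ DKO cells alone, 8.23% of all genes rose and 8.39% fell. The other 15 members were called in none. They were Wnt1, Wnt2b, Wnt3a, Wnt6, Wnt7a, Wnt8a, Wnt8b, Wnt10a, Wnt10b and Wnt16, the receptors Fzd4 and Fzd10, the antagonists Sfrp4 and Sfrp5, and Dkk4. Their group means lay between 4.08 (Dkk4) and 8.33 (Fzd4). Fzd4, a receptor known from retinal vessels, had the widest spread of group means among them at 1.82, but its DKO Flk1+ arrays were at 8.44 and 6.98. The lowest of the 37 by array was Wnt3 at 3.38, and the highest was Wnt4 at 12.09. No detection limit was used, so a low level is not shown to be expression.

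**Figure D1:**
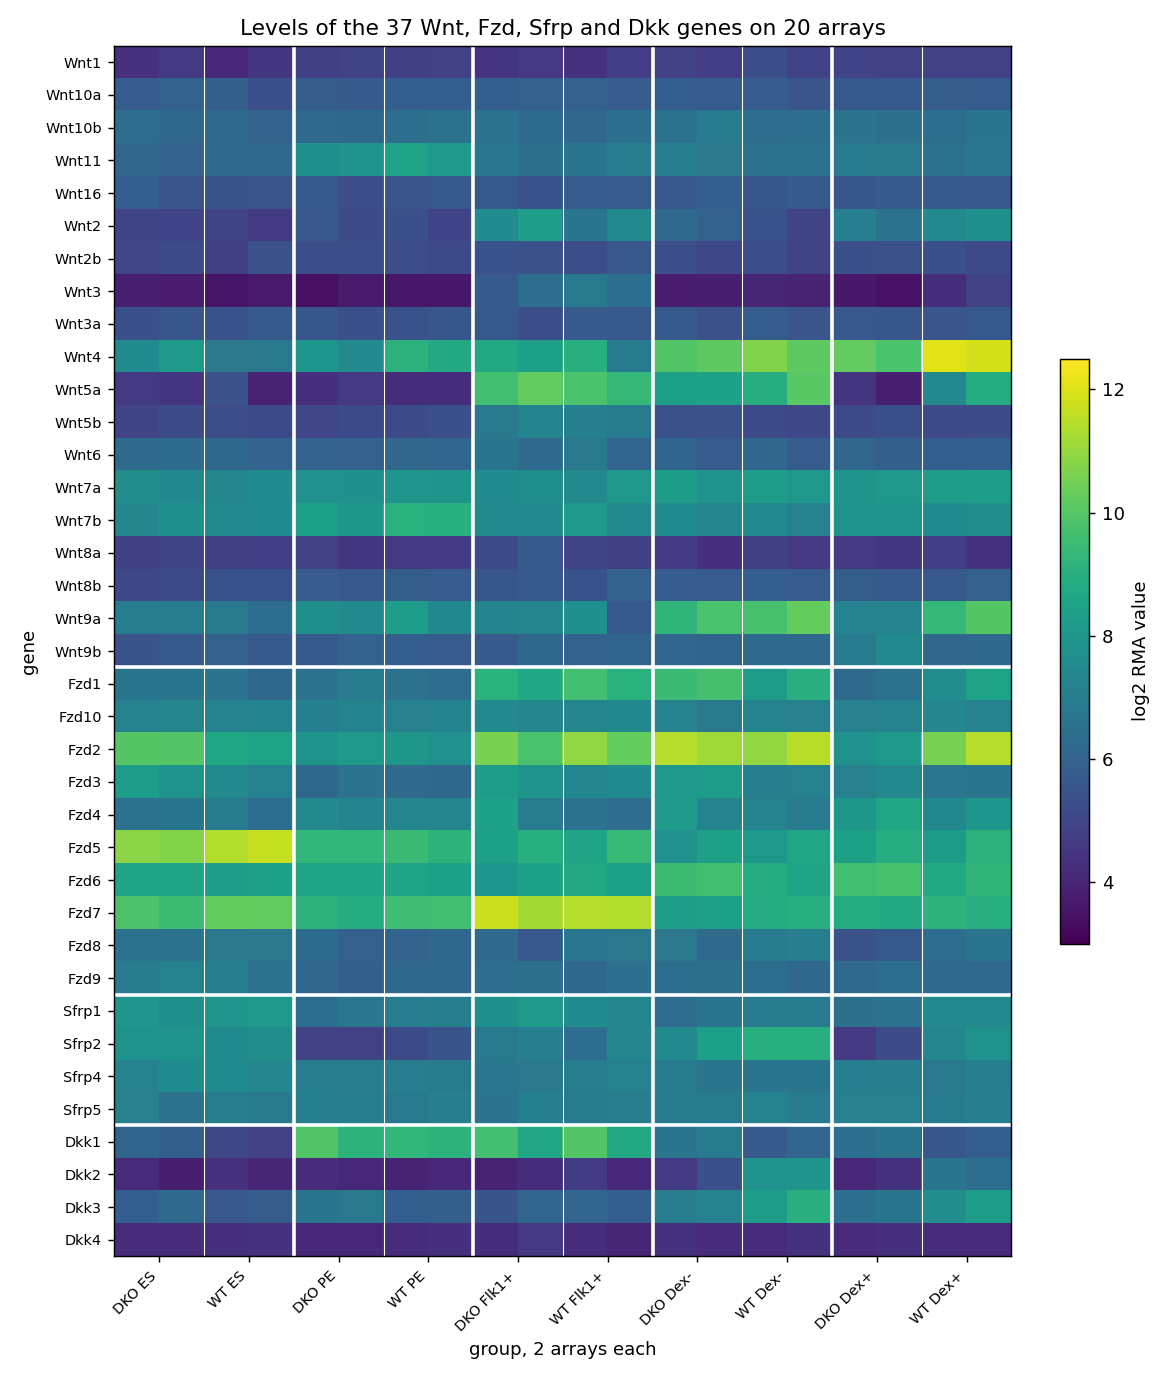
Log2 RMA values (colour) of the 37 members (rows, by family) on 20 arrays (columns, DKO and then WT within each of 5 states). Wnt5a stood at 3.85 and 4.44 in DKO Dex+ cells and at 7.46 and 8.88 in WT Dex+ cells, and Dkk4 stayed between 4.00 and 4.57 on every array.

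The greatest difference between genotypes was in Dex+ cells, where Gata4GR was active in cultured mesoderm. In DKO relative to WT Dex+ cells 1 member rose and 9 fell, while 4.81% of all genes rose and 4.83% fell. The median change was -0.001 over the members and -0.005 over all genes. The members that fell were 4 ligands, 2 receptors, 1 Sfrp and 2 Dkk genes.

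Among the ligands, Wnt5a was at 4.44 and 3.85 in DKO Dex+ cells, against 7.46 and 8.88 in WT Dex+ cells. It acts mainly through the β-catenin-independent branch. Both DKO arrays were below both WT arrays, and the log2 change was -4.02 ± 0.48 (SE), a 16.3-fold fall (adjusted p = 2.82e-05). Wnt9a, a ligand known from joint formation, was at 7.22 and 7.26 in DKO and at 9.32 and 10.01 in WT Dex+ cells, a change of -2.42 ± 0.49 (adjusted p = 0.00262). Wnt4, needed for kidney tubules and the female reproductive tract, was at 10.23 and 9.80 in DKO and at 12.09 and 11.89 in WT cells, a change of -1.97 ± 0.44 (adjusted p = 0.00477). For both genes the arrays of the genotypes stayed apart. Wnt3 was lower by 2.02-fold in DKO Dex+ cells, at 3.65 and 3.46 against 4.25 and 4.89 in WT Dex+ cells. Without WT Dex+ replicate 2 or DKO Dex+ replicate 2 Wnt3 was at -0.70 and -0.92 and not called, and without the second of these arrays Wnt4 was at -1.76 (adjusted p = 0.0548). The member that rose was Wnt9b, which in the mouse kidney acts upstream of Wnt4, with 6.87 and 7.52 in DKO and 6.14 and 6.22 in WT Dex+ cells (1.02 ± 0.20, adjusted p = 0.00227).

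The receptor Fzd2 was at 7.81 and 8.09 in DKO Dex+ cells and at 10.56 and 11.46 in WT Dex+ cells. This change of -3.06 ± 0.31 (8.32-fold, adjusted p = 5.82e-06) had groups that did not overlap, and its other 2 probe sets gave -3.35 and -2.65. Fzd1 was at 6.28 and 6.55 in DKO and at 7.64 and 8.51 in WT Dex+ cells (-1.66 ± 0.29, adjusted p = 0.000868). Fzd1 and Fzd2 are closely related receptors that, with Fzd7, serve both branches of the pathway.

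Sfrp2, a secreted protein that binds Wnt ligands, was at 4.63 and 5.17 in DKO Dex+ cells, against 7.37 and 7.87 in WT Dex+ cells (-2.72 ± 0.29, adjusted p = 9.89e-06). Dkk2, which binds Lrp5 and Lrp6, was at 4.05 and 4.39 in DKO and at 6.70 and 6.44 in WT Dex+ cells (-2.35 ± 0.25, adjusted p = 7.19e-06). Dkk3, a divergent Dickkopf protein, was at 6.46 and 6.71 in DKO and at 7.71 and 8.27 in WT Dex+ cells (-1.41 ± 0.26, adjusted p = 0.00132). In each of the 3 genes both DKO arrays lay below both WT arrays.

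Not every probe set of these genes gave a like value. For Wnt5a 2 of 3 other probe sets were lower by at least 2-fold in DKO cells, and the third changed by -0.01. The other probe sets of Wnt9a, Fzd1 and Wnt9b changed by -0.33, -0.23 and 0.05, and they stayed between 4.14 and 4.90, 4.01 and 5.02, and 4.52 and 5.05 on all arrays. With the mean of a gene's probe sets Fzd1 (-0.95) and Wnt9b (0.53) were not called. For Wnt4 and Dkk3 the other probe set changed by -2.34 and -1.02. Wnt9b lost its call when DKO Dex+ replicate 2 was left out, with a change of 0.69, or WT Dex+ replicate 1, with 0.98.

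Cell type markers moved with the same groups. The mean level of 5 primitive endoderm markers was 11.26 to 11.32 in DKO Dex+ arrays and 8.77 to 9.22 in WT Dex+ arrays. That of 4 smooth muscle markers was 9.0 to 9.64 in DKO and 10.92 to 11.04 in WT Dex+ arrays, with Acta2 at 14.09 and 13.19 in DKO and at 15.12 and 15.14 in WT cells. The mean of 4 cardiac markers was 9.32 to 9.67 in DKO and 8.46 to 8.66 in WT Dex+ arrays. Of these, Myl7 and Myh6 averaged 12.47 and 6.25 in DKO and 10.15 and 4.93 in WT cells, but Nkx2-5 averaged 6.55 and 6.77. Tnnt2 overlapped, at 12.87 and 12.54 in DKO and at 12.93 and 11.84 in WT cells. The mean of 3 endothelial markers was 7.75 to 8.11 in DKO and 6.73 to 6.92 in WT, and that of 4 blood markers was 5.74 to 5.78 in DKO and 4.98 to 5.30 in WT. Among the blood markers Hbb-bh1 was at 8.47 and 8.25 in DKO and at 5.88 and 6.27 in WT Dex+ cells, but Gata1 was at 4.78 and 4.97 in DKO and at 4.82 and 4.87 in WT cells. The mean of 3 visceral endoderm markers was 7.33 to 7.65 in DKO and 5.90 to 6.03 in WT Dex+ arrays. That of 4 lateral plate markers was 8.28 to 8.39 in DKO and 8.38 to 8.50 in WT arrays, with Kdr, Foxf1 and Hand1 averaging 7.59, 5.87 and 6.85 in DKO and 9.16, 7.32 and 8.23 in WT cells, and Pdgfra 13.03 in DKO and 9.05 in WT cells. Their part in the changes of the Wnt genes was not tested.

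**Figure D2:**
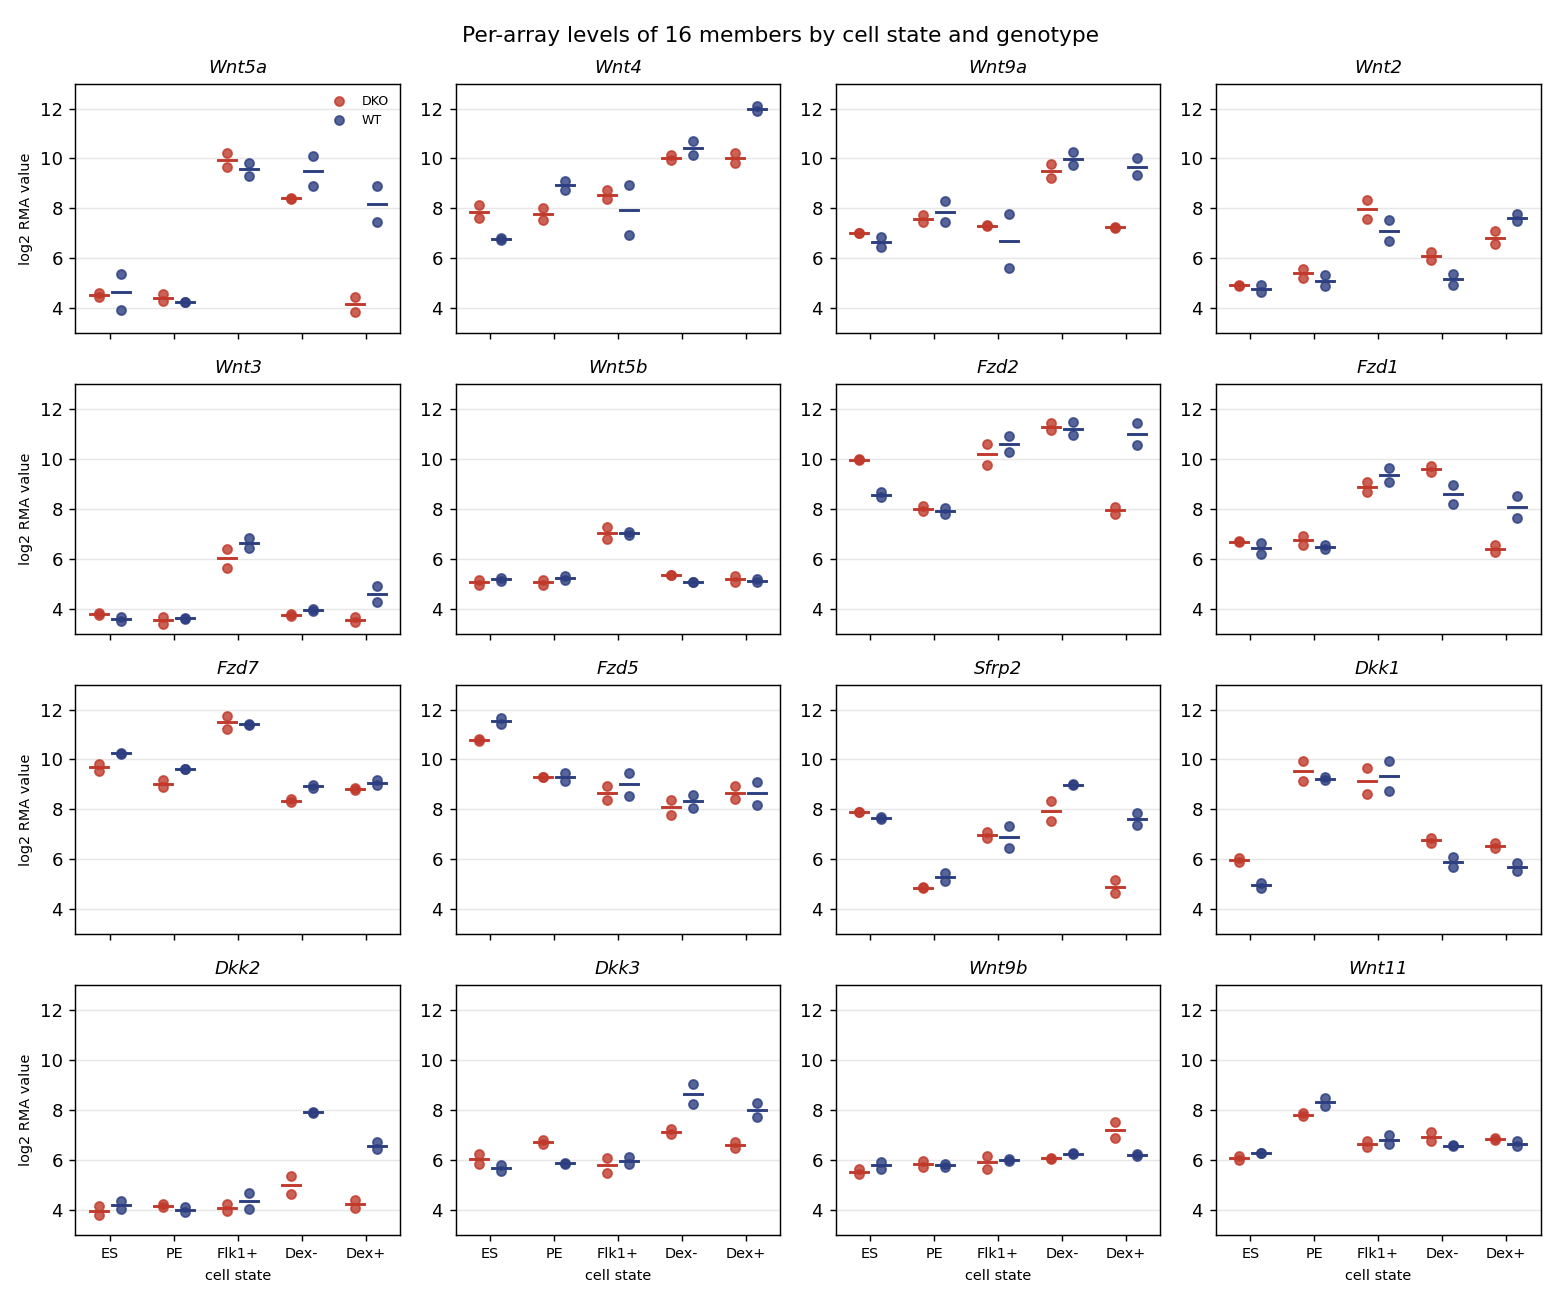
Log2 RMA value (vertical axis) of 16 members in 5 cell states (horizontal axis), with a point per array and a line at the mean of 2 arrays, DKO in red and WT in blue. In Dex+ cells the DKO points of Wnt5a, Fzd2, Fzd1, Sfrp2, Wnt9a, Wnt4, Dkk2 and Dkk3 all lie below the WT points, and those of Wnt9b above them.

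The response to Dex was next compared within each genotype. In DKO cells 1 member rose and 6 fell in Dex+ relative to Dex- cells, while 4.64% of all genes rose and 4.99% fell. In WT cells 1 member rose and 2 fell, while 1.15% of all genes rose and 0.451% fell. Which responses differed between the genotypes was tested as an interaction, in which 1 member was higher and 5 were lower in the DKO response, while 2.73% of all genes were higher and 3.13% lower. These comparisons share the Dex+ and Dex- arrays with each other and with the comparison of genotypes above, so they are not separate evidence.

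Wnt5a was at 4.44 and 3.85 in DKO Dex+ cells, against 8.38 and 8.43 in DKO Dex- cells, a change of -4.26 ± 0.48 (19.1-fold, adjusted p = 1.56e-05). In WT cells it was at 7.46 and 8.88 with Dex and at 8.91 and 10.08 without, and the change of -1.32 ± 0.48 did not pass (adjusted p = 0.231). The difference between the responses was -2.93 ± 0.68 (adjusted p = 0.0161). It was no longer called without any 1 of 4 arrays (WT Dex- replicate 1, DKO Dex- replicate 2, WT Dex+ replicate 2 or DKO Dex+ replicate 2), with values of -2.91 to -2.22, nor with the mean of its probe sets, where it was -1.29.

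Of the 6 differences between the Dex responses, those of the receptors Fzd2 and Fzd1 were called under every alternative that was tried. Fzd2 was at 7.81 and 8.09 in DKO Dex+ cells, against 11.43 and 11.15 in DKO Dex- cells (-3.34 ± 0.31), and changed by -0.21 ± 0.31 in WT cells. The responses differed by -3.13 ± 0.44 (8.73-fold, adjusted p = 0.000453), and the other 2 probe sets differed by -3.21 and -1.85. Fzd1 was at 6.28 and 6.55 in DKO Dex+ cells, against 9.49 and 9.70 in DKO Dex- cells (-3.19 ± 0.29), and changed by -0.50 ± 0.29 in WT cells. Here the difference was -2.68 ± 0.42 (adjusted p = 0.000914), while the dimmer second probe set gave -0.06. Fzd8, a receptor known from the anterior embryo, fell 2.00-fold in DKO cells (-1.0 ± 0.22), and its other probe set changed by 0.04. It was not called without DKO Dex- replicate 1 (-0.76) or DKO Dex+ replicate 1 (-0.90), nor with scan day as a factor (-0.86).

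Sfrp2 fell in both genotypes, by 8.23-fold in DKO cells (-3.04 ± 0.29), where it was at 4.63 and 5.17 in Dex+ and at 7.54 and 8.35 in Dex- cells, and by 2.57-fold in WT cells (-1.36 ± 0.29), where it was at 7.37 and 7.87 in Dex+ and at 9.01 and 8.96 in Dex- cells. The 2 responses differed by -1.68 ± 0.41 (adjusted p = 0.0227), a call that was lost without any 1 of 5 arrays (WT Dex- replicate 1 or 2, DKO Dex- replicate 2, WT Dex+ replicate 2 or DKO Dex+ replicate 1), with -1.70 to -1.27. In WT cells the fall missed the adjusted threshold without Dex- replicate 1, without Dex- replicate 2 or without Dex+ replicate 1, with changes of -1.39 to -1.11. Dkk2 fell in WT cells, to 6.70 and 6.44 in Dex+ cells against 7.88 and 7.91 in Dex- cells (-1.32 ± 0.25, adjusted p = 0.00829). This call was lost without WT Dex- replicate 1, WT Dex- replicate 2 or WT Dex+ replicate 2, with values of -1.34 to -1.19. In DKO cells Dkk2 was already low without Dex, and the change of -0.75 ± 0.25 was under 2-fold.

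Wnt2, a ligand known from the lung and placenta, was the member that rose in WT cells. It was at 7.48 and 7.77 in WT Dex+ cells, against 5.38 and 4.95 in WT Dex- cells (2.46 ± 0.30, 5.51-fold, adjusted p = 0.000206). In DKO cells it was at 7.09 and 6.56 with Dex and at 6.24 and 5.95 without, a change of 0.73 ± 0.30 that did not pass (adjusted p = 0.113). The responses differed by -1.73 ± 0.42 (adjusted p = 0.0209), a call that was lost without any 1 of 4 arrays (WT Dex- replicate 2, DKO Dex- replicate 1, WT Dex+ replicate 2 or DKO Dex+ replicate 2), with values of -1.59 to -1.47. Wnt9a fell 4.76-fold in DKO cells (-2.25 ± 0.49), although without DKO Dex- replicate 2 the change was -1.96 (adjusted p = 0.0522). The difference of -1.92 ± 0.70 from the WT response did not pass (adjusted p = 0.131). Wnt9b rose in DKO cells by 1.13 ± 0.20, a call lost without DKO Dex+ replicate 2, with 0.80, and differed from the WT response by 1.20 ± 0.29 (adjusted p = 0.0195). That difference was lost when any 1 of 6 arrays was left out (all but WT Dex- replicate 2 and DKO Dex+ replicate 1), with 0.87 to 1.24, and with the mean of its probe sets, with 0.60.

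**Figure D3:**
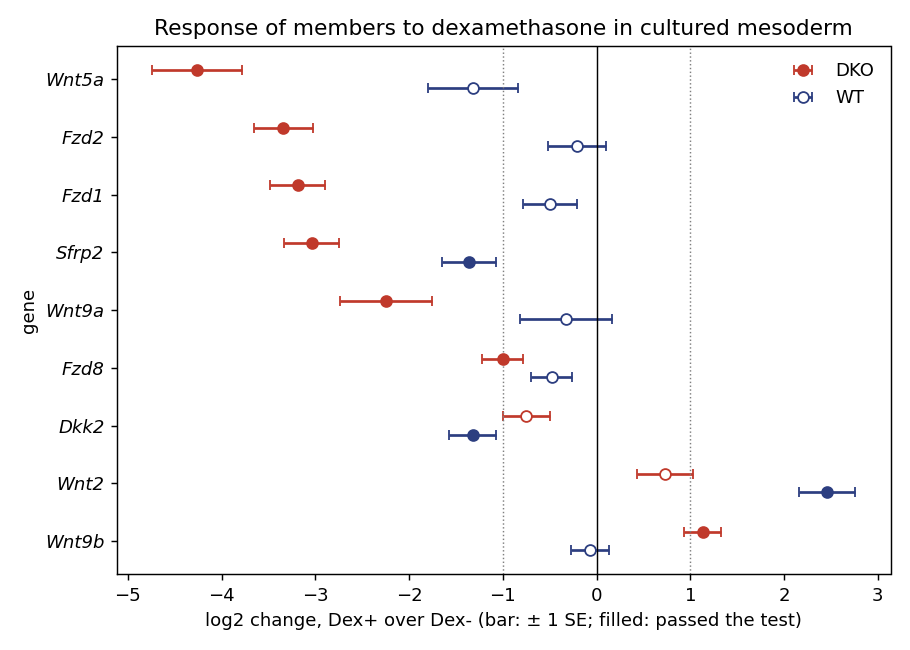
Log2 change in Dex+ over Dex- cells (horizontal axis) for the 9 members called in either genotype or in the interaction (rows), DKO in red above WT in blue, with bars of 1 SE and filled points where the test passed. Wnt5a, Fzd2, Fzd1 and Sfrp2 lie at -4.26, -3.34, -3.19 and -3.04 in DKO cells and at -1.32, -0.21, -0.50 and -1.36 in WT cells.

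The regions before the transcription start of members whose course differed between genotypes are shown because Dnmt3a and Dnmt3b place methyl groups on CpG sites and Gata4 binds GATA sites. Of the 8 members called in an interaction, 5 have an entry among the RefSeq promoters (GRCm38.p6), and the 250 bases before the start of that entry are given 5′ to 3′ with each CpG in capitals. The windows of Sfrp2, Wnt2 and Wnt9b lie inside the annotated genes, whose 5′ ends are at 83765750, 18032772 and 103775272. The counts below do not cover those outer ends.
Fzd1 (chr5:4758217-4758466, minus strand): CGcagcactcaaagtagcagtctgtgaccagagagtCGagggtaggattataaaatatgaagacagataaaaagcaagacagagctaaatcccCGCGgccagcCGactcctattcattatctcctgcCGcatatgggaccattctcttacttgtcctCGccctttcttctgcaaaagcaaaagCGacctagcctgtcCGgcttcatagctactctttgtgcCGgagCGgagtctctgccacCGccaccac
Wnt2 (chr6:18030446-18030695, minus strand): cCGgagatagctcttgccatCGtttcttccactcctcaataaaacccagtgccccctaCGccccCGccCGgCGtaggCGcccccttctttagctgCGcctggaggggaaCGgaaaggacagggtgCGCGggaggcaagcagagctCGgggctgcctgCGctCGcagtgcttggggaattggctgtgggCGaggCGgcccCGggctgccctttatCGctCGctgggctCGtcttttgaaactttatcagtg
Sfrp2 (chr3:83766071-83766320, plus strand): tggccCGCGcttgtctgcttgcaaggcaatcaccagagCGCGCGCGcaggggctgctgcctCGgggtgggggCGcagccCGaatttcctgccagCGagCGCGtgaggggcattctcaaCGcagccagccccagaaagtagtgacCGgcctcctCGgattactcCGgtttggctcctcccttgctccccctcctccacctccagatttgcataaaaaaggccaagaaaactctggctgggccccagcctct
Wnt9b (chr11:103749822-103750071, minus strand): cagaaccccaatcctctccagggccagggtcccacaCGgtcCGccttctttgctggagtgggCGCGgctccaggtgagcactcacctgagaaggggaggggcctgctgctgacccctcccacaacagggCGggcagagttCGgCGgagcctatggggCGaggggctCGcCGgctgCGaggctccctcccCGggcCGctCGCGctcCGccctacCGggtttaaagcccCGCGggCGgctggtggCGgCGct
Dkk2 (chr3:132085042-132085291, plus strand): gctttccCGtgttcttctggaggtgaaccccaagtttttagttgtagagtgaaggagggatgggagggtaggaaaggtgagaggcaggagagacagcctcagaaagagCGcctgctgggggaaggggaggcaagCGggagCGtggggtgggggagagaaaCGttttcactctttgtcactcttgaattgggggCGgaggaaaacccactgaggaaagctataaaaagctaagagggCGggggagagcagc
No entry was used for Wnt5a (gene at chr14:28504543-28527448), Fzd2 (chr11:102604431-102608058) or Fzd6 (chr15:39006149-39038192). There were 12 CpG sites in the Fzd1 window, 20 in Wnt2, 16 in Sfrp2, 22 in Wnt9b and 7 in Dkk2, against a median of 6 over all 32851 windows of this length. At least as many CpG sites were found in 33.5% of all windows for Fzd1, 17.9% for Wnt2, 25.4% for Sfrp2, 14.8% for Wnt9b and 46.3% for Dkk2. The GATA letters AGATAA or TGATAA, searched on both strands, occurred in 16.6% of all windows, with 2 matches in Fzd1, 1 in Wnt2 and none in these windows of Sfrp2, Wnt9b and Dkk2. The Tcf and Lef letters CTTTGAA or CTTTGAT occurred in 7.48% of all windows and in none of the 5. Over all members, 25 had 28 windows with a median of 22 CpG sites, 4 of them with GATA letters and 3 with Tcf and Lef letters. Methylation at these sites was not analysed here, and a match is not a bound site.

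The genotypes were compared in the other 4 states too, in Dex-, ES and Flk1+ cells, which had no Dex, and in PE, which had. In DKO relative to WT Dex- cells 2 members rose and 3 fell, while 3.51% of all genes rose and 2.34% fell. Dkk2 was at 4.62 and 5.33 in DKO Dex- cells, against 7.88 and 7.91 in WT Dex- cells (-2.93 ± 0.25, 7.60-fold, adjusted p = 1.93e-06). Dkk3 was at 7.04 and 7.22 in DKO and at 8.25 and 9.03 in WT Dex- cells (-1.51 ± 0.26, adjusted p = 0.00136). These 2 Dickkopf genes were thus lower in DKO mesoderm cultures both with and without Dex, and within each of the 2 scan days of the Dex- arrays Dkk2 differed by -3.26 and -2.59 and Dkk3 by -1.21 and -1.81. Sfrp2 fell by 2.06-fold (-1.04 ± 0.29), Fzd1 rose by 1.02 ± 0.29 and Fzd3, a receptor of the cell polarity branch, by 1.01 ± 0.19. These 3 calls were lost when single arrays were left out: without WT Dex- replicate 1, Sfrp2, Fzd1 and Fzd3 were at -1.02, 0.66 and 0.95 and none was called, although the values of Sfrp2 and Fzd3 had moved little. Each was also lost without 1 or 2 of the other arrays, Sfrp2 without WT Dex- replicate 2 or DKO Dex- replicate 1 (-1.06 and -0.64), Fzd1 without DKO Dex- replicate 1 or 2 (1.13 and 0.92) and Fzd3 without DKO Dex- replicate 2 (0.93). The other probe sets of Fzd1 and Fzd3 changed by -0.18 and by -0.19 to 0.29. With the arrays centred on their medians Fzd3 was at 0.99, which left 1 member higher and 3 lower. Markers also separated the Dex- arrays. Of the 3 nascent mesoderm markers, which averaged 7.45 to 7.47 in DKO and 5.98 to 6.0 in WT arrays, Eomes was at 9.47 and 10.11 in DKO and at 5.81 and 5.93 in WT cells, but Mesp1 was at 6.26 and 6.05 in DKO and at 6.49 and 6.26 in WT cells. The mean of the ES cell markers was 5.39 to 5.47 in DKO and 4.21 to 4.59 in WT arrays, that of 3 visceral endoderm markers 6.53 to 6.58 in DKO and 5.86 to 5.91 in WT, and that of 3 endothelial markers 7.06 to 7.26 in DKO and 6.33 to 6.34 in WT. Zfp42, Pou5f1 and Nanog averaged 7.12, 5.38 and 4.4 in DKO and 4.29, 4.27 and 3.92 in WT cells, but Sox2 4.81 and 5.11. Among the visceral endoderm markers Afp averaged 7.03 in DKO and 4.85 in WT cells, but Ttr 6.83 and 6.82 and Apoa1 5.79 and 5.98. The mean of 4 lateral plate markers was 8.06 to 8.09 in DKO and 8.27 to 8.29 in WT arrays. Of these, Foxf1 was at 6.09 and 6.56 in DKO and at 9.10 and 9.07 in WT Dex- cells. Hand1 averaged 8.85 in DKO and 9.65 in WT cells, but Kdr averaged 8.22 and 7.73 and Pdgfra 8.91 and 6.66. The mean of 4 smooth muscle markers was 10.91 to 11.49 in DKO and 10.5 to 10.57 in WT arrays. Cnn1 and Myh11 averaged 9.59 and 6.12 in DKO and 7.89 and 4.78 in WT cells. Acta2 and Tagln went the other way, with 14.93 and 14.18 in DKO and 15.1 and 14.37 in WT cells. The cardiac mean was 6.61 to 7.04 in DKO and 5.98 to 6.18 in WT arrays. Tnnt2, Myl7 and Myh6 averaged 9.6, 6.65 and 4.84 in DKO and 7.64, 5.72 and 4.57 in WT cells, but Nkx2-5 6.21 and 6.39. The part of these markers was not tested.

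In undifferentiated ES cells Fzd2 read 9.99 and 9.94 in the DKO arrays and 8.69 and 8.46 in the WT arrays, and with 1.39 ± 0.31 (adjusted p = 0.0289) it was the 1 member that rose, while none fell and 1.12% of all genes rose and 0.269% fell. Its 4 arrays lie apart, and its other probe sets differed by 0.73 and 1.37 on the log2 scale, but the adjusted p was 0.0799 to 0.262 when any 1 of the 4 was left out. In PE no member passed (adjusted p under 0.05 and 2-fold in limma), while 1.13% of all genes rose and 0.824% fell. At an unadjusted p under 0.05 there were 6 members, and 13.1% of all genes. The ligand Wnt7b was nearest, at 8.39 and 8.03 in DKO PE and at 9.06 and 9.04 in WT PE cells (-0.84 ± 0.20, adjusted p = 0.0293), a change under 2-fold. Dkk3 was higher in DKO PE cells, at 6.65 and 6.81 against 5.85 and 5.89 in WT PE cells, short of the rule. In Dex- and Dex+ cells it was lower in DKO than in WT cells. In Flk1+ cells no member passed either, while 0.396% of all genes rose and 0.302% fell, with 8 members and 13.1% of all genes at an unadjusted p under 0.05. Without the 2 arrays of the parental lines, a setting chosen after the data were seen for all but this comparison, Wnt4, Wnt9a and Fzd8 were called between the genotypes, but this compares 1 array with 1 array, each assumed to vary like the arrays of the other groups. The largest gap of a member between the 2 arrays of a group, 2.17 for Wnt9a, was in WT Flk1+ cells. The median gap over the members was 0.32 there and 0.35 in DKO Flk1+ cells. In WT Flk1+ cells Wnt9a was at 7.78 in replicate 1 and 5.61 in replicate 2, Wnt4 at 8.94 and 6.95, and Dkk1 at 9.95 and 8.73.

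The formation of mesoderm was compared next. In Flk1+ relative to ES cells 7 members rose and 1 fell in DKO cells, while 4.56% of all genes rose and 5.62% fell. In WT cells 8 members rose and 1 fell, while 6.15% of all genes rose and 6.30% fell. The median change over the members was 0.149 in DKO and 0.227 in WT cells, against -0.001 and 0.033 over all genes. All 7 members that rose in DKO cells were among the 8 that rose in WT cells, and Fzd5 fell in both, while over all genes 78.1% of the rises in DKO cells were shared. No member differed between genotypes in this step by the interaction, while 0.203% of all genes were higher and 0.588% lower in the DKO response, and 7 members and 10.3% of all genes had an unadjusted p under 0.05.

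The ligands among them were Wnt5a, Wnt3, Wnt2 and Wnt5b. Wnt5a was at 9.64 and 10.22 in DKO Flk1+ cells, against 4.61 and 4.46 in DKO ES cells (5.39 ± 0.48, 42.1-fold, adjusted p = 1.30e-06). Its WT arrays were at 9.81 and 9.31 in Flk1+ cells, against 5.37 and 3.93 in WT ES cells (4.91 ± 0.48, adjusted p = 2.54e-06). Of its 3 other probe sets, 1 changed by only 0.23 in DKO and 0.61 in WT cells. Wnt3, the primitive streak ligand, was at 5.65 and 6.40 in DKO Flk1+ cells, against 3.84 and 3.73 in DKO ES cells (2.24 ± 0.23), and rose by 3.03 ± 0.23 in WT cells to 6.84 and 6.42. Flk1+ cells were the state with its highest level in both genotypes, and no array of any other state reached theirs. Wnt2 was at 7.58 and 8.34 in DKO Flk1+ cells, against 4.95 and 4.91 in DKO ES cells (3.03 ± 0.30), and rose by 2.32 ± 0.30 in WT cells. Wnt5b, a close relative of Wnt5a, rose by 1.98 ± 0.16 in DKO and by 1.84 ± 0.16 in WT cells, with all 4 Flk1+ arrays between 6.80 and 7.28 and every other array at 5.36 or below.

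Among the receptors, Fzd1 rose by 2.19 ± 0.29 in DKO and by 2.94 ± 0.29 in WT cells, and Fzd7 rose by 1.80 ± 0.17 and 1.18 ± 0.17. The second probe set of each stayed within 1 log2 unit, with 0.36 and 0.82 for Fzd1 and 0.34 and 0.11 for Fzd7 in DKO and WT cells. Fzd2 rose in WT cells, to 10.94 and 10.26 in Flk1+ against 8.69 and 8.46 in ES cells (2.03 ± 0.31). The DKO arrays were at 10.59 and 9.77 for Flk1+ and at 9.99 and 9.94 for ES cells, a change of 0.21 ± 0.31 (adjusted p = 0.72), and the difference of -1.81 ± 0.44 between genotypes had an adjusted p of 0.0893. With the parental-line arrays left out it was called, on 1 Flk1+ array per genotype with a spread taken from the other groups. Fzd5, a receptor known from the yolk sac and the eye, was the member that fell: it was at 8.39 and 8.95 in DKO Flk1+ against 10.84 and 10.74 in DKO ES cells (-2.12 ± 0.34). WT arrays were at 8.55 and 9.45 in Flk1+ against 11.42 and 11.68 in WT ES cells (-2.55 ± 0.34).

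Dkk1, an antagonist that is itself a target of β-catenin, was at 9.65 and 8.63 in DKO Flk1+ cells, against 6.07 and 5.89 in DKO ES cells (3.17 ± 0.36). Its WT arrays were at 9.95 and 8.73 in Flk1+ cells, against 5.06 and 4.84 in WT ES cells (4.39 ± 0.36). Flk1+ and ES arrays were apart in both genotypes, and the other probe set changed by 2.98 in DKO and 3.78 in WT cells. In the comparisons with ES cells the scan day cannot be told apart from the state, since all ES arrays were scanned on a day of their own. Flk1+ cells still held ES cell markers at a mean level of 7.83 to 8.52 in DKO and 7.35 to 8.46 in WT arrays, and their part was not tested.

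After 4 more days of culture without Dex the markers had changed as well. The nascent mesoderm mean was 5.98 to 7.47 in Dex- arrays and 11.71 to 12.08 in Flk1+ arrays, and the smooth muscle mean was 10.5 to 11.49 in Dex- arrays and 7.39 to 8.67 in Flk1+ arrays, and their part in what follows was not tested. In Dex- relative to Flk1+ cells 5 members rose and 7 fell in DKO cells, while 8.23% of all genes rose and 8.39% fell. In WT cells 5 members rose and 5 fell, while 7.49% of all genes rose and 7.79% fell. All 5 members that fell in WT cells were among the 7 that fell in DKO cells, while over all genes 69.3% of the falls in WT cells were shared. Fzd7 was at 8.29 and 8.40 in DKO Dex- cells, against 11.74 and 11.23 in DKO Flk1+ cells (-3.14 ± 0.17), and fell in WT cells (-2.5 ± 0.17), although its second probe set changed by -0.26 and -0.15. Of the others, Dkk1 changed by -2.38 ± 0.36 in DKO and -3.44 ± 0.36 in WT cells, Wnt3 by -2.27 ± 0.23 and -2.68 ± 0.23, Wnt2 by -1.87 ± 0.30 and -1.94 ± 0.30, and Wnt5b by -1.68 ± 0.16 and -1.95 ± 0.16. In each of these 5 genes no Dex- array reached the Flk1+ arrays of its genotype.

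The 5 members that rose in WT cells, Dkk2, Wnt9a, Dkk3, Wnt4 and Sfrp2, were all among the 9 that fell in DKO relative to WT Dex+ cells. Over all genes, 534 of the 1362 that rose in that step were among the 879 that fell there, or 39.2% and 60.8% of them. Wnt9a was at 9.20 and 9.78 in DKO Dex- cells, against 7.28 and 7.32 in DKO Flk1+ cells (2.19 ± 0.49), and at 9.73 and 10.26 in WT Dex- cells, against 7.78 and 5.61 in WT Flk1+ cells (3.29 ± 0.49). Its other probe set changed by 0.24 and 0.11. Wnt4 rose by 1.49 ± 0.44 in DKO and 2.48 ± 0.44 in WT cells, and Dkk3 by 1.36 ± 0.26 and 2.67 ± 0.26. The rise of Wnt4 in DKO cells missed the threshold without DKO Flk1+ replicate 2 or either DKO Dex- array, with 1.30 to 1.6. Sfrp2 rose in WT cells to 9.01 and 8.96 in Dex- cells against 6.45 and 7.35 in Flk1+ cells (2.08 ± 0.29), and was at 7.54 and 8.35 in DKO Dex- and 6.85 and 7.10 in DKO Flk1+ cells, a change of 0.97 ± 0.29 that was under 2-fold.

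Only 2 members passed the test of a difference between genotypes in this step, 1 higher and 1 lower in the DKO response, while 1.82% of all genes were higher and 1.08% lower. Dkk2 was at 4.62 and 5.33 in DKO Dex- cells, against 3.93 and 4.24 in DKO Flk1+ cells, and at 7.88 and 7.91 in WT Dex- cells, against 4.68 and 4.04 in WT Flk1+ cells. It rose 11.6-fold in WT cells (3.54 ± 0.25, adjusted p = 8.49e-08), and its change of 0.89 ± 0.25 in DKO cells was under 2-fold, a difference of -2.65 ± 0.35 (adjusted p = 0.000481). Fzd6, a polarity receptor known from hair follicle orientation, was at 9.56 and 9.62 in DKO Dex- cells, against 8.0 and 8.45 in DKO Flk1+ cells (1.37 ± 0.18), and changed by 0.10 ± 0.18 in WT cells, a difference of 1.27 ± 0.26 (adjusted p = 0.0116). This difference was no longer called without WT Dex- replicate 2 (1.12) or without the parental-line arrays (0.87), and the other 2 probe sets of Fzd6 gave -0.04 and 0.39. Without the parental-line arrays, which leaves 1 Flk1+ array per genotype with a spread taken from the other groups, 6 members were called in this interaction, Dkk2 again and Wnt4, Wnt8a, Wnt9a, Dkk3 and Sfrp1. In DKO cells Wnt5a (-1.52 ± 0.48) and Sfrp1 (-1.41 ± 0.15) also fell and Fzd2 (1.11 ± 0.31) rose. The call of Wnt5a was lost without DKO Flk1+ replicate 2 or either DKO Dex- array (-1.55 to -1.24), and that of Fzd2 without DKO Flk1+ replicate 2 (0.70) or DKO Dex- replicate 1 (0.97), or with scan day as a factor (0.97). With the mean of its probe sets Sfrp1 was at -0.85 and not called, and its 4 other probe sets changed by -2.34 to 0.26.

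In PE, which forms from ES cells when Gata4GR is active, the members were compared in the same way. In PE relative to ES cells 2 members rose and 6 fell in DKO cells, while 8.13% of all genes rose and 8.18% fell. In WT cells 4 rose and 3 fell, while 7.68% of all genes rose and 6.55% fell. No member differed between genotypes by the interaction, while 0.511% of all genes were higher and 0.846% lower, and 3 members and 8.66% of all genes had an unadjusted p under 0.05. Dkk1 was at 9.92 and 9.14 in DKO PE cells, against 6.07 and 5.89 in DKO ES cells (3.56 ± 0.36). Its WT arrays were at 9.30 and 9.16 in PE cells, against 5.06 and 4.84 in WT ES cells (4.28 ± 0.36, 19.4-fold, adjusted p = 5.47e-07). Wnt11, a ligand of the β-catenin-independent branch known from the heart, was at 7.74 and 7.86 in DKO PE cells, against 6.14 and 5.98 in DKO ES cells (1.74 ± 0.16), and rose by 2.04 ± 0.16 in WT cells to 8.49 and 8.15. The highest array of Wnt11 outside PE was at 7.11.

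Wnt4 and Wnt7b rose in WT PE cells by 2.14 ± 0.44 and 1.51 ± 0.20. In DKO cells they changed by -0.10 ± 0.44 and 0.62 ± 0.20, and neither difference between genotypes passed. The other probe sets of Wnt4 and Wnt7b changed by 0.13 and 0.37 in WT cells, and with the mean of its probe sets Wnt7b was at 0.94 and not called. Sfrp2 fell in DKO cells (-3.03 ± 0.29), to 4.89 and 4.83 in PE against 7.89 and 7.88 in ES cells, and in WT cells (-2.35 ± 0.29), to 5.12 and 5.47 in PE against 7.60 and 7.69 in ES cells. Fzd5 and Fzd3 fell in both, Fzd5 with changes of -1.49 ± 0.34 in DKO and -2.25 ± 0.34 in WT cells and Fzd3 with -1.66 ± 0.19 and -1.10 ± 0.19. In DKO cells Fzd2 (-1.96 ± 0.31), Sfrp1 (-1.27 ± 0.15) and Fzd9 (-1.04 ± 0.17) fell too, and in WT cells they changed by -0.66 ± 0.31, -0.97 ± 0.15 and -0.62 ± 0.17, each short of the rule. Fzd9 was not called in DKO cells without DKO ES replicate 2 (-0.92) or DKO PE replicate 2 (-0.91), nor Fzd3 in WT cells without WT ES replicate 1 (-0.94). Single other probe sets of Fzd3 and Sfrp1 changed by as little as -0.07 and 0.03 in DKO cells. Fzd3 was not called with the mean of its probe sets (-0.95 in DKO and -0.69 in WT cells), nor was Sfrp1 in DKO cells (-0.79). As all ES arrays were scanned apart, day and state cannot be told apart here either, and WT PE cells held ES cell markers at the higher level given above.

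Dex+ cells from mesoderm were finally set beside PE cells from ES cells, as Gata4GR was active in both. In WT cells 9 members rose and 3 fell in Dex+ relative to PE cells, while 6.13% of all genes rose and 6.20% fell. In DKO cells 4 rose and 1 fell, while 2.73% of all genes rose and 1.74% fell. These comparisons share Dex+ arrays with that of DKO and WT Dex+ cells, and the values of members that fell there are given side by side. Wnt5a was at 4.44 and 3.85 in DKO Dex+ and at 4.28 and 4.57 in DKO PE cells (-0.28 ± 0.48), Fzd2 at 7.81 and 8.09 in DKO Dex+ and at 7.92 and 8.11 in DKO PE cells (-0.06 ± 0.31), and Sfrp2 at 4.63 and 5.17 in DKO Dex+ and at 4.89 and 4.83 in DKO PE cells (0.05 ± 0.29). The changes of Fzd1, Wnt9a, Dkk2, Dkk3 and Wnt3 were -0.33 ± 0.29, -0.35 ± 0.49, 0.07 ± 0.25, -0.15 ± 0.26 and 0.03 ± 0.23. None of these 8 was called in DKO cells, which does not show that their levels were equal. In WT cells Wnt3 changed by 0.96 ± 0.23, and the others rose in Dex+ relative to PE cells, with Wnt5a at 7.46 and 8.88 against 4.24 and 4.26 (3.92 ± 0.48, 15.2-fold, adjusted p = 2.43e-05), Fzd2 by 3.09 ± 0.31, Dkk2 by 2.57 ± 0.25, Sfrp2 by 2.33 ± 0.29, Dkk3 by 2.12 ± 0.26, Wnt9a by 1.79 ± 0.49 and Fzd1 by 1.61 ± 0.29. Wnt9a was not called without WT PE replicate 2 (1.35) or WT Dex+ replicate 2 (1.44), nor Fzd1 with the mean of its probe sets (0.94).

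The 5 members called between DKO Dex+ and DKO PE cells were Dkk1, Wnt4, Wnt2, Wnt9b and Fzd6. Dkk1 was at 6.46 and 6.64 in DKO Dex+ cells, against 9.92 and 9.14 in DKO PE cells (-2.99 ± 0.36), and fell by 3.53 ± 0.36 in WT cells. Wnt4 was at 10.23 and 9.80 in DKO Dex+ cells, against 8.0 and 7.52 in DKO PE cells (2.26 ± 0.44), and rose by 3.07 ± 0.44 in WT cells. Wnt2 rose by 1.43 ± 0.30 in DKO and 2.51 ± 0.30 in WT cells. Leaving out DKO PE replicate 2 or DKO Dex+ replicate 1 ended the calls of Wnt4 (2.02 and 2.04) and Wnt2 (1.23 and 1.16) in DKO cells. Wnt9b (1.37 ± 0.20) and Fzd6 (1.18 ± 0.18) rose in DKO cells, with other probe sets at -0.05 and at 0.05 and 0.44. Wnt11 and Wnt7b fell in WT cells, with changes of -1.67 ± 0.16 and -1.41 ± 0.20. With the mean of its probe sets Wnt7b was at -0.84 and not called, and its other probe set changed by -0.26.

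The rest of the pathway was followed with a list of 64 measured genes: co-receptors, other secreted modulators, ligand secretion, cytoplasmic relay, nuclear factors, known targets and polarity genes. In Flk1+ relative to ES cells 15 of the 64 rose and 3 fell in DKO cells, against 4.56% and 5.62% of all genes, and 13 rose and 2 fell in WT cells, against 6.15% and 6.30%. Rspo3, a secreted protein that strengthens Wnt signals, was at 11.04 and 10.32 in DKO Flk1+ cells, against 5.06 and 4.82 in DKO ES cells (5.74 ± 0.42), and rose by 6.32 ± 0.42 in WT cells. Frzb, a secreted Frizzled-like antagonist outside the naming rule, rose by 4.69 ± 0.43 in DKO and 5.26 ± 0.43 in WT cells, and Apcdd1, a membrane inhibitor, by 3.48 ± 0.32 and 3.90 ± 0.32. Of 14 measured known targets of β-catenin 4 rose in each genotype (Axin2, Sp5, Sp8 and Tbx6), none fell and 10 were not called: Axin2 rose by 1.08 ± 0.25 in DKO and 1.77 ± 0.25 in WT cells, and Sp5 by 2.72 ± 0.39 and 3.56 ± 0.39. Lef1, a nuclear partner of β-catenin, rose by 1.97 ± 0.30 and 1.28 ± 0.30.

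In Dex- relative to Flk1+ cells 3 of the 64 rose and 16 fell in DKO cells, against 8.23% and 8.39% of all genes, and 5 rose and 11 fell in WT cells, against 7.49% and 7.79%. Axin2, Sp5 and Frzb fell in both: Axin2 changed by -1.86 ± 0.25 in DKO and -3.06 ± 0.25 in WT cells, Sp5 by -3.24 ± 0.39 and -4.36 ± 0.39, and Frzb by -4.11 ± 0.43 and -4.17 ± 0.43. Of the 64, 3 differed between genotypes in this step, all lower in the DKO response: the cell cycle gene Ccnd1 (-2.87 ± 0.44), Lef1 (-2.55 ± 0.43) and Tcf7l2 (-1.50 ± 0.35), another nuclear partner of β-catenin. Lef1 was at 6.79 and 6.14 in DKO Dex- cells, against 9.90 and 9.94 in DKO Flk1+ cells, while in WT cells it was at 7.80 and 8.39 in Dex- and at 9.04 and 8.96 in Flk1+ cells. In DKO relative to WT Dex- cells 2 of the 64 rose and 5 fell, against 3.51% and 2.34% of all genes, with Ccnd1 at -2.98 ± 0.31 and Lef1 at -1.63 ± 0.30.

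In Dex+ cells 5 of the 64 rose and 6 fell in DKO relative to WT cells, against 4.81% and 4.83% of all genes. Ccnd1 was at 6.20 and 6.12 in DKO and at 9.21 and 9.31 in WT Dex+ cells (-3.10 ± 0.31). Rspo3 was at 9.0 and 8.26 in DKO and at 11.37 and 11.38 in WT Dex+ cells (-2.74 ± 0.42). Wls, the carrier that brings Wnt ligands to the cell surface, was at 9.50 and 9.44 in DKO and at 11.28 and 11.87 in WT Dex+ cells (-2.11 ± 0.34), while Porcn, the enzyme that adds their lipid, was at 8.70 and 8.23 in DKO and at 6.49 and 7.14 in WT Dex+ cells (1.65 ± 0.35). The 2 secretion genes thus moved in opposite directions. Sp8 (1.85 ± 0.44) and Tcf7l2 (1.65 ± 0.25) rose and Lef1 (-1.16 ± 0.30) fell. Axin2 and Sp5 did not pass, with 0.10 ± 0.25 and -0.17 ± 0.39.

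The response to Dex differed between the genotypes for 5 of the 64, with 2 higher and 3 lower in DKO cells, against 2.73% and 3.13% of all genes, which is near the background. Rspo3 rose in WT cells by 3.58 ± 0.42 and was the 1 gene of the 64 that passed there, to 11.37 and 11.38 in Dex+ against 6.98 and 8.62 in Dex- cells. In DKO cells it was at 9.0 and 8.26 with Dex and at 8.74 and 8.77 without, and the difference was -3.70 ± 0.59 (adjusted p = 0.00122). Tcf7l2 was at 9.67 and 9.65 in DKO Dex+ cells, against 6.59 and 6.58 in DKO Dex- cells (3.08 ± 0.25), with a difference of 3.12 ± 0.35 from the WT response (adjusted p = 6.04e-05). Wls and Sp8 differed by -2.24 ± 0.48 and 2.54 ± 0.62. Axin2, Sp5 and Lef1 changed by -0.37 ± 0.25, -0.08 ± 0.39 and -0.17 ± 0.30 in DKO and by 0.31 ± 0.25, 0.43 ± 0.39 and -0.64 ± 0.30 in WT cells, and none passed. In PE relative to ES cells Tcf7l2 rose by 3.87 ± 0.25 in DKO and by 3.36 ± 0.25 in WT cells. In DKO Dex+ relative to DKO PE cells 3 of the 64 rose and 3 fell, against 2.73% and 1.74% of all genes. Rspo3 was among those that rose (3.06 ± 0.42). Tcf7l2, Porcn and Sp8 were not called, which does not show equal levels. Their means were 9.66, 8.47 and 6.95 in DKO Dex+ cells and 10.15, 8.41 and 6.81 in DKO PE cells.

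**Figure D4:**
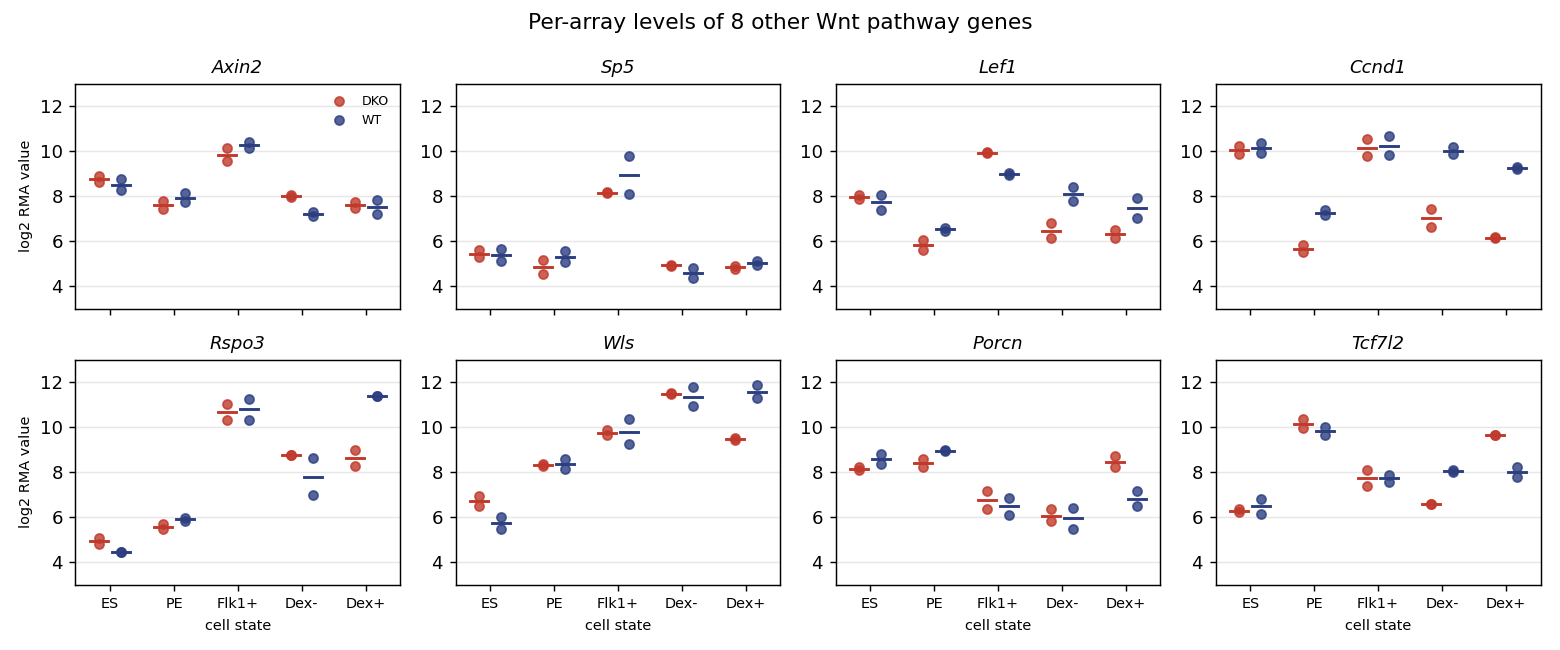
Log2 RMA value (vertical axis) of 8 other pathway genes in 5 cell states (horizontal axis), with a point per array and a line at the mean of 2 arrays, DKO in red and WT in blue. Axin2 and Sp5 peak in Flk1+ cells of both genotypes, and in Dex+ cells Ccnd1, Rspo3 and Wls lie lower and Porcn and Tcf7l2 higher in DKO than in WT cells.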

How the data were processed

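Expression was measured on 20 arrays, 2 for each of 10 groups, which the labels call biological replicates and the methods RNA of independent experiments. The deposited values are log2 levels that the authors made with RMA from RNA labelled in 2 cycles. The version is not given in the sources used here. Array medians were 5.785 to 5.867, and the number of arrays limits the precision. The platform annotation gave 1 symbol to 34958 of 45101 probe sets, several to 932 and none to 9211. For each of 18194 genes the probe set of greatest average level on the 20 arrays was kept. The members had 73 probe sets, with several for 22 of them. Members and lists were chosen with earlier results of these data known.

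The fit, in limma 3.58.1 under R 4.3.3, had 1 mean for each group and used every array (10 residual and 4.54 prior degrees of freedom), tested on simulated data, with p-values adjusted over all genes. The study's SAM test permutes labels, and with 2 arrays against 2 no exact two-sided permutation p lies below 0.333. There were 19 comparisons: 5 of genotype, 10 of state and 4 interactions. Members with the greatest change were chosen for detail, up to 4 per direction and comparison, among those called with groups apart. Test values of some other members were added, among them Wnt4, Fzd1, Dkk2 and Dkk3 in Dex+ cells. The rest were given by counts and values. The pathway list had 67 entries, 64 of them measured. The marker lists had 38, with 37 measured. Alternatives were no low genes (the lowest 40%), other probe set rules, no fold limit, centring, an intensity trend, scan day and replicate as blocks, and leaving out arrays. Leaving out the parental-line arrays beyond the Flk1+ genotype comparison was added after seeing the data. Raw intensities were not used.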

Additional observations from a re-analysis of the deposited data

Results flagged for a closer look

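There were 8 differences between the responses of DKO and WT cells past the threshold by a test of the difference itself. In Dex+ relative to Dex- cells the DKO response was lower than the WT response for Fzd2 (-3.13), Wnt5a (-2.93), Fzd1 (-2.68), Wnt2 (-1.73) and Sfrp2 (-1.68), and higher for Wnt9b (1.20). In Dex- relative to Flk1+ cells it was lower for Dkk2 (-2.65) and higher for Fzd6 (1.27). These are log2 differences from the fit over 20 arrays. Groups of 2 arrays are too small for a search for arrays that stand apart.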

How the results depend on the processing

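Of the 105 calls of a member in a comparison, 69 were made under every alternative that gave a value and 36 were lost under at least 1. No direction reversed. With 1 array left out, which leaves a lone array assumed to vary like the other groups, the number of members called was 0 in each case (1 with all arrays) for DKO against WT ES cells, 0 to 2 (0) for Flk1+ cells, 3 to 4 (5) for Dex- cells and 1 to 2 (3) for Dex+ against Dex- cells in WT. In the interactions it was 0 to 1 (0) for Flk1+ against ES, 2 to 4 (2) for Dex- against Flk1+ and 2 to 5 (6) for Dex+ against Dex- cells. Without the parental-line arrays, with 1 Flk1+ array per genotype, 3 members were called for DKO against WT Flk1+ cells, 1 in the interaction of Flk1+ against ES and 6 in that of Dex- against Flk1+ cells.

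Without the lowest 40% of genes, which left out 14 members by construction (Wnt2, Wnt3, Wnt5b, Wnt9b and Dkk2 among them), 5 members were called for Flk1+ against ES in DKO, 6 for Dex- against Flk1+ in WT, 1 for Dex+ against Dex- in WT, 3 for Dex+ against PE in DKO and 1 in the interaction of Dex- against Flk1+ cells. With the mean of a gene's probe sets it was 1 for DKO against WT PE (Dkk3), 3 for DKO against WT Dex- cells, 3 for Dex+ against PE in DKO and 1 in the interaction of Dex- against Flk1+ cells. With no fold limit it was 1 for DKO against WT PE (Wnt7b), 13 for PE against ES in WT and 14 for Flk1+ against ES in DKO. The causes were not tested beyond these constructions. With scan day as a factor 71 of 73 calls were made. It gave no value for PE or Flk1+ against ES cells, as the ES arrays had a day of their own.

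With the replicate number as a block all 105 calls were made, 10 of them for DKO against WT Dex+ cells, and 1 call was added for Flk1+ against ES in WT and 1 in the interaction of Dex- against Flk1+ cells. Arrays of the same number and state correlated in their deviations at 0.18 to 0.36, but the number marks no shared culture in the labels. These are arrays, so no sequencing depth applies, and low levels were not compared with background.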

Other observations

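Of 9 measured genes of the cell polarity branch 1 was called between the genotypes in each state: Prickle1 was higher in DKO ES and PE cells, Celsr1 lower in DKO Flk1+ cells (-1.19 ± 0.25), Prickle2 lower in DKO Dex- cells (-1.29 ± 0.35) and Daam1 lower in DKO Dex+ cells (-1.41 ± 0.19). Over all genes 1.12% rose and 0.269% fell in ES cells, 1.13% and 0.824% in PE, and 0.396% and 0.302% in Flk1+ cells. The shares were 3.51% and 2.34% in Dex- cells, and 4.81% and 4.83% in Dex+ cells. A single call among 9 genes is not read as a trait of this branch. Prickle1, a polarity protein, was at 9.40 and 9.42 in DKO PE cells, against 8.19 and 8.08 in WT PE cells (1.28 ± 0.20, adjusted p = 0.0018), and read 8.34 and 8.39 in DKO ES arrays, against 7.54 and 7.11 in WT ES arrays (1.04 ± 0.20). The Flk1+ arrays read 8.54 and 8.09 for DKO, against 9.21 and 8.59 for WT, and the responses from ES cells differed by -1.63 ± 0.29 (adjusted p = 0.0142). In Dex- cells the 4 arrays lay between 10.87 and 11.01. Daam1, a formin that acts after Dishevelled, was at 10.99 and 10.80 in DKO Dex+ cells, against 12.38 and 12.40 in DKO Dex- cells (-1.49 ± 0.19), and at 12.33 and 12.28 in WT Dex+ and 12.28 and 12.44 in WT Dex- cells, and the responses differed by -1.44 ± 0.27 (adjusted p = 0.00392). Ror2, a co-receptor for Wnt5a from the list of receptors, was at 5.58 and 5.39 in DKO and at 7.0 and 7.55 in WT Dex- cells (-1.78 ± 0.23), and at 5.20 and 5.38 in DKO and 6.97 and 6.56 in WT Dex+ cells (-1.48 ± 0.23). In both states its DKO arrays lay below its WT arrays.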
